A study of Homo sapiens with 3 samples.

Results

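The genes described here are 10 that encode the folding machinery of the endoplasmic reticulum (ER) and its control: HSPA5, HSP90B1, CALR, CANX, PDIA3, PDIA4, PDIA6, P4HB, DNAJB9 and XBP1. They were named as a list, and every probe set whose annotation gives 1 of these symbols and no other was taken. This gave 10 probe sets of 9 genes, of 18417 named genes on the arrays, and all 9 genes passed the filter on low values, as did 12057 genes in all. PDIA3, a disulfide isomerase that works with calnexin and calreticulin, is listed only on 2 probe sets that also list its pseudogene PDIA3P1, and it is given no value. P4HB has 2 probe sets and the other 8 genes have 1 each. The cells were H9, an established human embryonic stem cell line under pluripotent conditions, with no treatment or genetic change in the labels. The 3 samples were a polysome-bound fraction (mRNAs loaded with several ribosomes), a polysome-unbound fraction described as free of polysomes, and total RNA, each on 1 Affymetrix array. There were no replicates, so no difference below has a replicate error or a test. Whether the fractions came from 1 culture or several is not stated in the labels.

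Secreted and membrane proteins enter the ER while they are being translated, and chaperones in its lumen hold, fold and oxidise them. When unfolded proteins accumulate, sensors in the ER membrane raise transcription of these chaperones and restrain translation, a program known as the unfolded protein response, in which the transcription factor XBP1 is activated by an unusual cytoplasmic splicing step. Most of the chaperones are soluble proteins of the lumen whose own mRNAs are translated at the ER membrane. A probe set for the whole gene does not separate spliced from unspliced XBP1.

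The ER stress response element is the DNA motif through which the unfolded protein response acts on many of these genes. It is shown as a description of their promoters and was not taken from the array values. Since the motif is known from such genes, its share among them is no independent finding. The motif searched was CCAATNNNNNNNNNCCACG, on both strands, in RefSeq promoter windows of 300 bases (GRCh38.p14; 250 before and 50 after each annotated start). It was found in 6 of the 9 members that have a window, HSPA5, HSP90B1, CALR, CANX, PDIA6 and XBP1, against 25 of 27305 genes in all (0.0916%), those 6 included. The 15 windows of the members include alternative starts, and 8 of them hold the element, against 27 of 35116 windows (0.0769%). In PDIA4, P4HB and DNAJB9 these letters did not occur in the windows, and PDIA3 has no entry. The elements follow with 5 bases on each side, 5′ to 3′ on the gene's strand, with the element in capitals. In CALR and at the second place in HSP90B1 the element lies on the opposite strand, so the capitals are its reverse complement.
HSPA5, chr9:125241386-125241414, minus strand: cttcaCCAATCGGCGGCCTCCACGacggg
HSP90B1, chr12:103930211-103930239, plus strand: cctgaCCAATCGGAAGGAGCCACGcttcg
HSP90B1, chr12:103930316-103930344, plus strand: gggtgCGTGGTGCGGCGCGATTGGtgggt
CALR, chr19:12938379-12938407, plus strand: ccacgCGTGGTCGACCATCATTGGtcggt
CANX, chr5:179698773-179698801, plus strand: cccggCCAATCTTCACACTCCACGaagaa
PDIA6, chr2:10812848-10812876, minus strand: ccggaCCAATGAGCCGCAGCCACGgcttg
XBP1, chr22:28800598-28800626, minus strand: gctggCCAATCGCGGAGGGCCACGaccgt

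The 250 bases before the start of HSPA5, a gene in which the element has been much studied, show the exact match in context. The search asked for these exact letters, so near matches, here and in the other windows, were neither counted nor marked.
HSPA5, chr9:125241344-125241593, minus strand: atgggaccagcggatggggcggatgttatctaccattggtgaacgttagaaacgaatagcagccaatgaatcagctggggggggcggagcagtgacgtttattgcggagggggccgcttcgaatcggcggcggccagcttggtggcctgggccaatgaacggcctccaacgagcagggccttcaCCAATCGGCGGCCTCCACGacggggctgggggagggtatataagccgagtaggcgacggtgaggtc

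**Figure D1:**
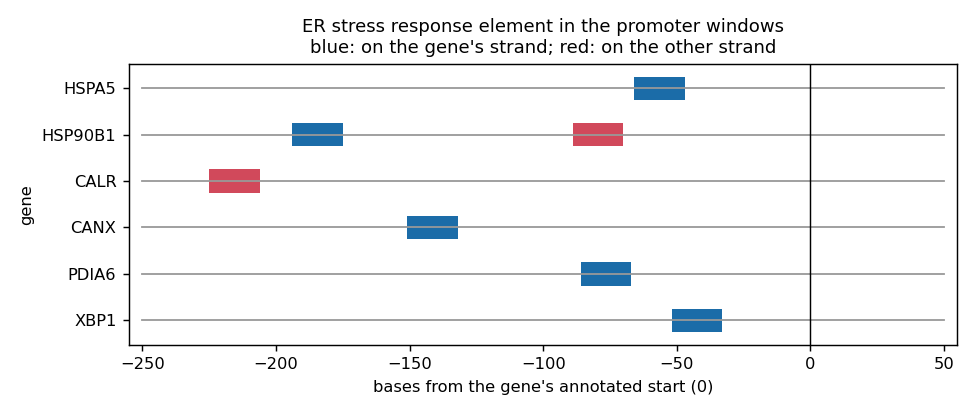
Position of the ER stress response element (coloured bars) in the promoter windows of 6 genes, in bases from the annotated start (x axis); blue bars lie on the gene's strand, red bars on the other. CANX has several annotated starts, and its element is drawn at -151, the nearest placement that lies wholly before a start. From another annotated start the same element spans -9 to 9, which is not drawn. The element begins at -52 in XBP1, -66 in HSPA5 and -86 in PDIA6, and at -225 in CALR.

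As a check on the samples, 11 of 11 measured pluripotency markers were above the background line of the total RNA array. On the bound and on the unbound array 10 of 11 were above that array's background line. The line is the 95th percentile of 459 genes of restricted tissues (such as olfactory receptors and defensins) and stood at 4.39 on the bound, 3.57 on the unbound and 3.76 on the total RNA array, in log2 units. Of 6 measured markers of cells with much ER (plasma cells, endocrine and exocrine cells, liver) only SDC1 was above it in total RNA. Of 9 fibroblast markers, 7 were above it in total RNA, and 8 were above the line on the bound and on the unbound array. The arrays also differ by an offset: over the 12057 genes the bound median lay 1.26 above the unbound and 1.03 above the total RNA median, and the unbound median 0.23 below the total RNA median (a difference of -0.23). A relative difference below is a log2 difference minus this offset. A gene counts as apart at a relative difference of 1, which is 2-fold.

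The levels give the first view of the chaperones, as deposited log2 values. The HSP70 chaperone HSPA5 (BiP), which binds nascent chains and holds the stress sensors inactive, was at 9.96 on the bound, 8.42 on the unbound and 10.67 on the total RNA array. HSP90B1 (GRP94), the HSP90 of the ER, was at 11.01, 9.30 and 11.56 in the same order. Both were highest in total RNA and lowest in unbound RNA. PDIA4, a large protein disulfide isomerase, had the same order, with 9.89, 7.80 and 10.24.

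The lectin chaperones hold glycoproteins through their sugars, CALR in the lumen and CANX from the membrane. CALR was at 10.20 on the bound, 8.34 on the unbound and 10.16 on the total RNA array. CANX was at 11.32, 10.78 and 11.46, the narrowest range over the 3 arrays of the 9 genes.

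Of the other disulfide isomerases, PDIA6 was at 12.07 on the bound, 10.03 on the unbound and 11.94 on the total RNA array. P4HB, the classical isomerase and a subunit of collagen prolyl hydroxylase, was at 10.62, 9.18 and 10.20 on its brighter probe set and at 10.02, 8.61 and 9.68 on the other. Both genes were lowest in unbound RNA.

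DNAJB9 (ERdj4), an HSPA5 cochaperone induced by stress, was at 5.72 on the bound, 5.10 on the unbound and 4.89 on the total RNA array. It was above the background line on all 3 arrays, but on the bound and total RNA arrays it lay below the 99th percentile of the tissue-restricted genes (5.97 and 5.03), so its differences rest on dim values. XBP1 was at 9.05, 7.71 and 8.08, highest in bound RNA.

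**Figure D2:**
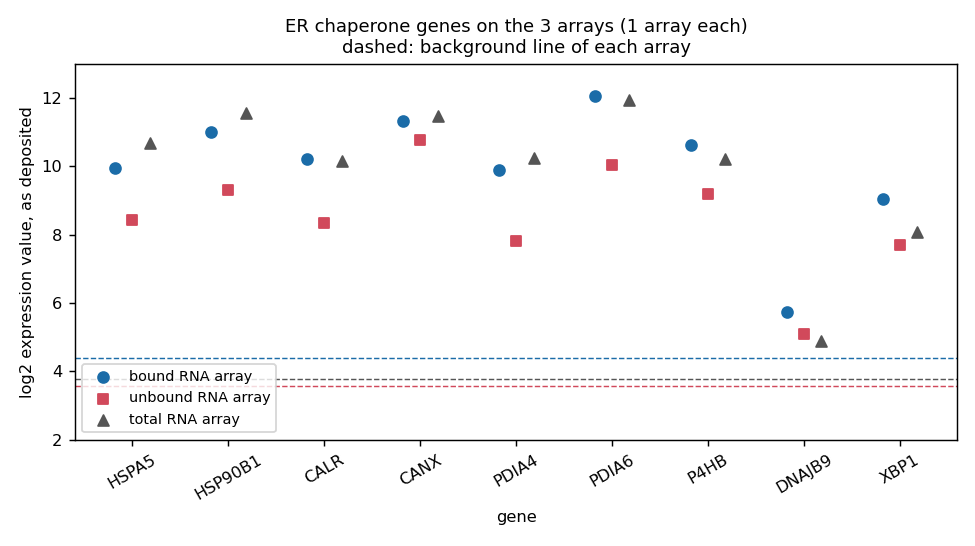
Deposited log2 expression values (y axis) of the 9 measured genes (x axis) on the bound (circles), unbound (squares) and total RNA (triangles) arrays, 1 array each; dashed lines mark each array's background line. The unbound array is the lowest of the 3 for 8 genes, and for DNAJB9 the total RNA array is lowest at 4.89; HSPA5, HSP90B1, CANX and PDIA4 are highest in total RNA. The arrays differ by an offset that the plot does not remove.

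The largest shifts were in unbound against total RNA, which sets the polysome-free pool against the RNA of the whole cells. HSPA5, HSP90B1, CALR, PDIA4 and PDIA6 lay 2-fold or more lower in unbound RNA, 5 of the 9 measured genes, and 0 higher. Over all 12057 genes 10% were lower and 8.08% higher by the same rule. The median of the 9 genes was -1.58, against -0.07 for all genes. PDIA4 had a relative difference of -2.21, and 0.514% of all genes were lower still. HSP90B1 had -2.03 and HSPA5 -2.02, with 0.763% and 0.780% of genes below them. PDIA6 (-1.68, 2.02% of genes lower) and CALR (-1.58, 2.64% lower) came next.

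The remaining genes did not reach 2-fold in this comparison. P4HB had -0.79, CANX -0.45 and XBP1 -0.14, and DNAJB9 lay on the other side at 0.45. The 5 lowest genes were past 2-fold under each of the 4 scalings run. As deposited 6 genes were 2-fold lower, P4HB (-1.02) with them, against 16.0% of all genes. When a lowess trend of the difference on signal level was removed, the same 5 were lower, from -1.30 (CALR) to -2.03 (HSP90B1), against 7.56% of all genes. Total RNA was purified with another column kit (RNeasy Plus) than the polysome pools (PureLink), so here and in bound against total RNA a difference of source cannot be told apart from one of kit. Fibroblast markers were also lower in unbound RNA, with 3 of the 8 past the filter at least 2-fold lower and a median of -0.65. The deposited log2 levels of all 9 measured fibroblast markers summed to 47.3 on the unbound, 62.0 on the bound and 55.8 on the total RNA array. These sums keep the offset between the arrays, so they do not show which array held more fibroblast RNA. Of the pluripotency markers 5 of 11 were 2-fold lower, with a median of -0.78. Their part in the result was not tested. If the culture was mixed, fewer cells of a type and less RNA per cell could not be told apart.

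**Figure D3:**
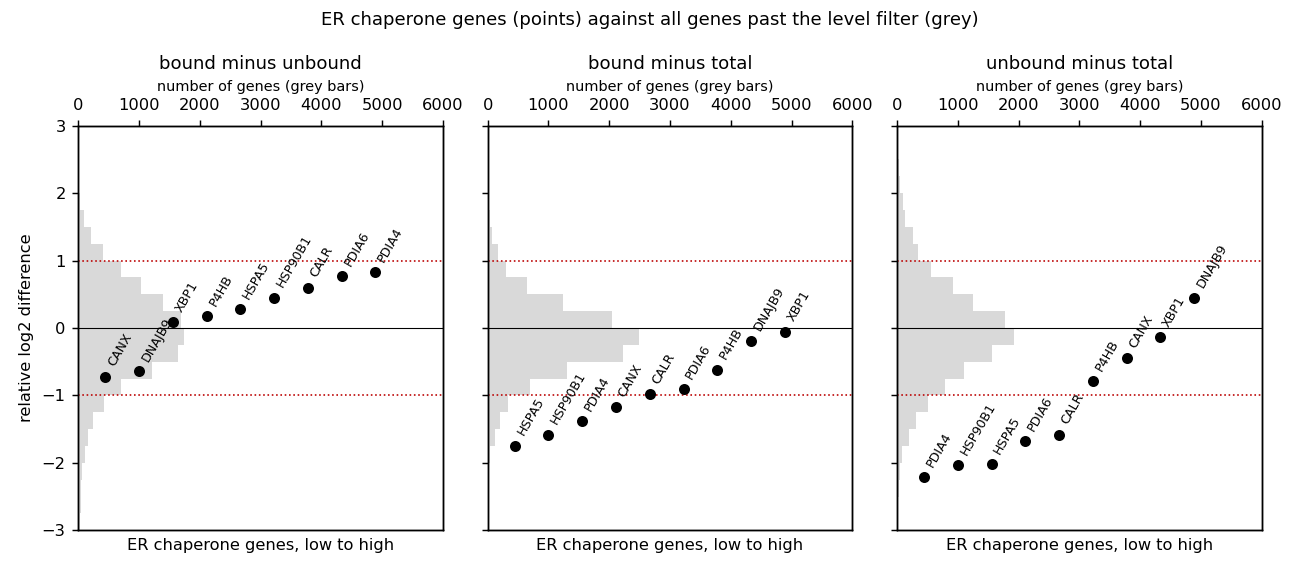
Relative log2 differences (y axis) of the 9 genes (points, ordered from low to high) in each pair of arrays, over the distribution of all 12057 genes (grey bars, number of genes on the upper axis; values beyond 3 in size are not drawn). Dotted lines mark 2-fold. In unbound minus total RNA 5 points lie below the lower line, and 4 do for bound minus total RNA; 0 lie beyond either line for bound minus unbound RNA.

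Bound against total RNA shares the total RNA array with the comparison above, so the values stand side by side and are not a second finding. Here HSPA5 (-1.74), HSP90B1 (-1.58), PDIA4 (-1.38) and CANX (-1.17) lay 2-fold or more lower in bound RNA, 4 of 9 genes, and 0 higher. Over all genes 6.43% were lower and 2.66% higher. CALR had -0.99, PDIA6 -0.91 and P4HB -0.62, while DNAJB9 (-0.20) and XBP1 (-0.06) were near the other genes. The median of the 9 was -0.99, against -0.14 for all genes. Of the pluripotency markers 5 of 11 were 2-fold lower here as well, with a median of -0.76, and of the fibroblast markers 2 of 8 were lower and 1 higher, with a median of -0.21. Their part was not tested.

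This count rests on the scaling. As deposited none of the 9 genes was 2-fold lower, against 0.572% of all genes, and values ran from -0.71 (HSPA5) to 0.97 (XBP1). After removal of the lowess trend HSPA5 alone was (-1.09), against 3.68% of all genes. Bright genes as a class were low in this comparison: the 196 genes with a mean level from 10 to 11 had a median of -0.67 and the 83 genes above 11 had -1.25. The lowess values, which take that trend away, were -0.79 for PDIA4, -0.68 for HSP90B1, -0.37 for CALR and -0.24 for CANX, and they were positive for PDIA6 (0.19) and P4HB (0.06).

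Bound against unbound RNA asks most directly how the mRNAs divide between polysomes and the free pool. None of the 9 genes was 2-fold apart in either direction after centring, against 6.36% of all genes higher and 9.91% lower. PDIA4 (0.83) and PDIA6 (0.77) lay furthest to the bound side, with 9.82% and 11.6% of all genes higher. CALR (0.60), HSP90B1 (0.45), HSPA5 (0.28), P4HB (0.17) and XBP1 (0.08) followed, and 7 of 9 values were above 0. The median was 0.28, against -0.07 for all genes. The 8 fibroblast markers past the filter had a median of 0.51, with 2 of them 2-fold higher, and the 11 pluripotency markers 0.02, with 1 higher. Their part was not tested.

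CANX (-0.72) and DNAJB9 (-0.64) lay on the unbound side after centring. The sign of CANX turned with the scaling, since it was 0.15 after the lowess trend was removed, 0.49 after quantile normalization and 0.54 as deposited. DNAJB9 kept its sign under lowess (-0.63) and quantile normalization (-0.48) and was 0.62 as deposited. CANX and CALR, the paired lectin chaperones, were thus 1.32 apart after centring on the log2 scale and 0.58 apart with the lowess trend removed.

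Scaling also moved the bound side of this comparison. As deposited all but CANX and DNAJB9, 7 genes, were past 2-fold on the bound side, against 61.4% of all genes. With the lowess trend removed, PDIA6 (1.64) was the single gene past 2-fold, against 6.38% of all genes. After quantile normalization PDIA6 (1.91), HSP90B1 (1.25), PDIA4 (1.11) and CALR (1.02) were past it, against 10.7% of all genes, whose median was 0.14 on that scale. Centring leaves the order of the deposited values as it is, and in that order PDIA4 and PDIA6 came first. With lowess or quantile normalization PDIA6 came first, then HSP90B1 and PDIA4. PDIA6 and CANX are among the 83 genes with a mean level above 11, whose median in this comparison was -1.69 after centring. Their lowess values thus rest on how that trend among few genes was removed.

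**Figure D4:**
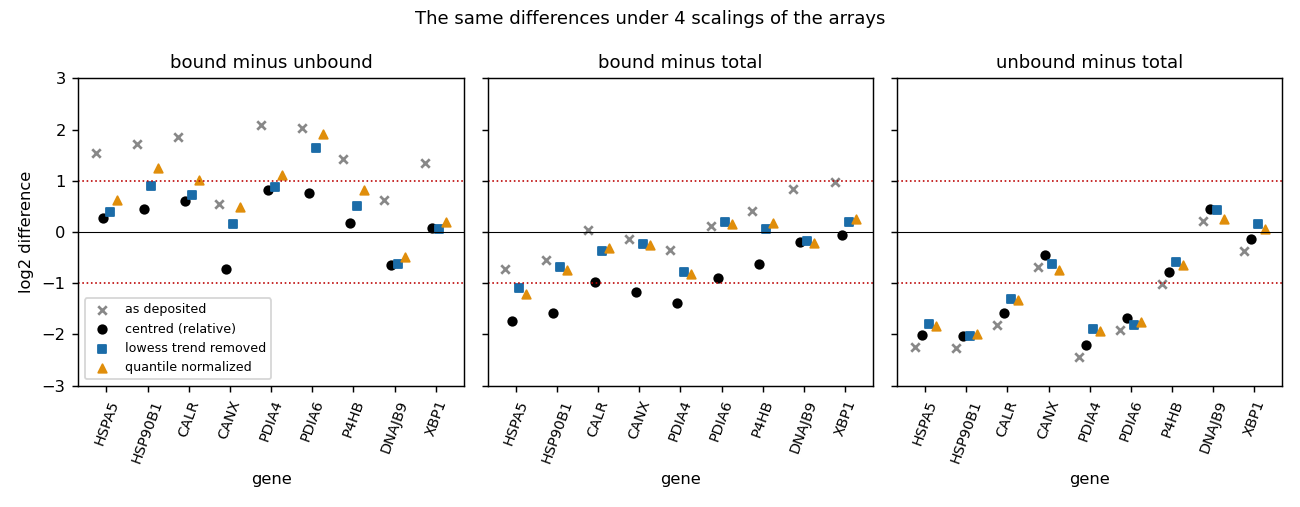
Log2 differences (y axis) of the 9 genes (x axis) in each pair of arrays under 4 scalings: as deposited (crosses), centred on array medians (circles), lowess trend removed (squares) and quantile normalized (triangles). Dotted lines mark 2-fold. HSPA5, HSP90B1, CALR, PDIA4 and PDIA6 stay below the lower line in unbound minus total RNA under all 4, while values in the comparisons with bound RNA cross the lines.

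How far 2 probe sets of 1 gene differ gives a scale for these values, though it is not a replicate error. Over 364 genes with 2 probe sets past the filter, the median gap between them was 0.18 for bound minus unbound, 0.16 for bound minus total and 0.18 for unbound minus total RNA, with an SD of 0.69, 0.46 and 0.62. The deposited differences of the P4HB probe sets were 1.44 and 1.42 for bound minus unbound, 0.41 and 0.35 for bound minus total and -1.02 and -1.07 for unbound minus total RNA. The pair was closer than most genes in each comparison.

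Other folding genes of the ER give the context of the pathway. Of 61 listed (cochaperones, other disulfide isomerases and oxidases, prolyl isomerases, the glucose trimming cycle, retrieval receptors), 54 passed the filter. In unbound against total RNA 16 lay 2-fold or more lower and 1 higher (median -0.42), against 10% and 8.08% of all genes. With the lowess trend removed 14 were lower and 2 higher, against 7.56% and 9.4% of all genes. In bound against unbound RNA 10 were higher and 3 lower (median 0.27), against 6.36% and 9.91% of all genes. In bound against total RNA 1 was higher and 7 lower (median -0.18), against 2.66% and 6.43% of all genes. These counts rest on the scaling. With the lowess trend removed 1 was higher and 3 lower (median 0.035), against 3.23% and 3.68% of all genes. As deposited 18 were higher and 0 lower, against 40.1% and 0.572%. PRDX4, a peroxidase that oxidises isomerases, had 1.89 in bound minus unbound and -2.47 in unbound minus total RNA. MLEC, a lectin that binds newly glycosylated proteins, had 1.78 and -1.79.

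At the other end of that list were PRKCSH and KDELR1. PRKCSH, the regulatory subunit of glucosidase II, had -1.84 in bound minus unbound and 0.43 in unbound minus total RNA. KDELR1, a receptor that returns escaped chaperones to the ER, had -1.19 and 0.98, and -0.61 and 1.09 with the lowess trend removed. GANAB, the catalytic partner of PRKCSH, lay on the other side with 0.34 and -2.09, so the subunits of 1 enzyme differed by 2.19 in bound minus unbound RNA. GANAB was picked after its values were seen, as were HYOU1, an ER relative of HSP70 that serves HSPA5 (0.75 and -2.14), and UGGT1, which tags unfinished glycoproteins for CALR and CANX (1.35 and -2.43). In unbound minus total RNA all 3 were below HSPA5 (-2.02).

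The cytosolic chaperones, the counterparts outside the ER, serve as a comparison, and the difference between the lists was not tested. Of 47 listed 40 passed the filter. In bound against unbound RNA 1 was at least 2-fold higher and 8 were lower (median -0.26), against 6.36% and 9.91% of all genes. In unbound against total RNA 2 were higher and 7 lower (median -0.22), against 8.08% and 10% of all genes. In bound against total RNA 0 were higher and 17 lower (median -0.66), against 2.66% and 6.43% of all genes. The last count rests on the scaling, since 3 were lower with the lowess trend removed (median -0.27) and 0 as deposited (median 0.37). HSPA8, the constitutive cytosolic HSP70, had -1.92 in bound minus unbound RNA, where HSPA5 had 0.28. HSP90AB1, a cytosolic HSP90, had -1.67, where HSP90B1 had 0.45. HSP90AA1, another cytosolic HSP90, picked after its values were seen, had -0.12. In unbound minus total RNA HSPA8 had 0.14 and HSP90AB1 -0.02, against -2.02 for HSPA5 and -2.03 for HSP90B1. HSP90AA1 had -1.71 there, nearer to HSP90B1 than to HSP90AB1.

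The gaps of HSPA8 to HSPA5 and of HSP90AB1 to HSP90B1 narrowed when the level trend was taken away. Then bound minus unbound was -0.49 for both HSPA8 and HSP90AB1, against 0.39 for HSPA5 and 0.90 for HSP90B1. Unbound minus total was -0.43 for both, against -1.79 for HSPA5 and -2.03 for HSP90B1. HSP90AA1 then had 0.52 in bound minus unbound and -1.83 in unbound minus total RNA. HSPA9, the HSP70 of mitochondria, was nearer to HSPA5. After centring it had -0.37 in bound minus unbound, -1.76 in bound minus total and -1.39 in unbound minus total RNA. With the lowess trend removed its values were -0.20, -1.12 and -1.22 in the same order. After centring, the prefoldin subunits PFDN5 (-2.40) and VBP1 (1.51) stood at opposite ends of the cytosolic list in bound minus unbound RNA. HSPBP1 (0.94) was next to VBP1.

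**Figure D5:**
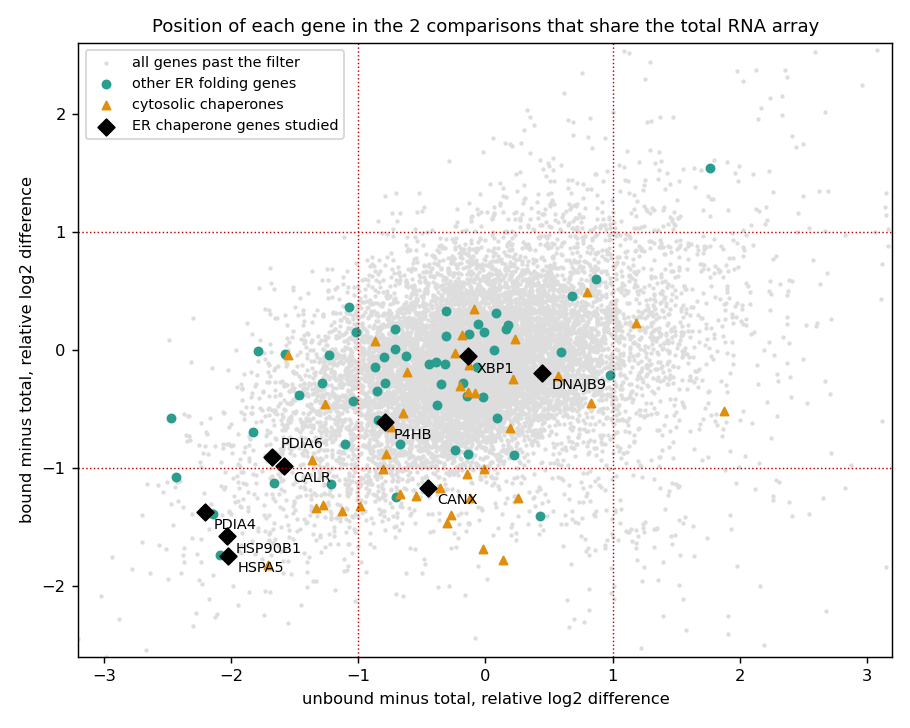
Relative log2 difference of unbound minus total RNA (x axis) against bound minus total RNA (y axis) for all genes past the filter (grey), the 9 genes studied (diamonds), other ER folding genes (circles) and cytosolic chaperones (triangles); dotted lines mark 2-fold, and genes beyond the axes are not drawn. Both axes use the total RNA array, so a slope between them is built in. HSPA5, HSP90B1 and PDIA4 lie below -2 on the x axis and XBP1 and DNAJB9 near the centre.

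Of 26 listed sensors and effectors of the unfolded protein response, 20 passed the filter. In unbound against total RNA 1 was at least 2-fold lower and 2 were higher, with a median of -0.06, against 10% and 8.08% of all genes. In bound against unbound RNA 2 were higher and 3 lower (median -0.01), against 6.36% and 9.91% of all genes, and in bound against total RNA 0 of 20 were apart, against 2.66% higher and 6.43% lower. Counts this close to the shares over all genes say nothing particular about the list. EIF2AK3 (PERK), the sensor kinase that restrains translation, had -1.01 in unbound minus total RNA, at the edge of the threshold (-0.98 with the lowess trend removed, where 0 genes of the list were lower), and 0.83 in bound minus unbound RNA. ATF6, the sensor that is cut to become a transcription factor, had -0.11 and -0.07, close to XBP1 (-0.14 and 0.08).

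ERN1 (IRE1), the sensor that splices XBP1, did not pass the filter, with 4.51 on the bound, 3.38 on the unbound and 3.59 on the total RNA array, above the background line on the bound array alone. ATF4, the effector whose translation rises under stress through upstream reading frames, was on the unbound side, with -1.36 in bound minus unbound and 1.07 in unbound minus total RNA. With the lowess trend removed these values were -0.80 and 1.18, and after quantile normalization -0.56 and 0.93. DDIT3 (CHOP), which acts in stress-induced death, was at 4.95 on the bound and 4.46 on the unbound array and just below the background line in total RNA, with -0.77 in bound minus unbound RNA. ASNS, a target of ATF4, had -1.16, while MBTPS1 (1.22), the protease that cuts ATF6, and CREB3L2 (1.16) were highest. MBTPS1 also lay at the edge in unbound minus total RNA, just short of 2-fold (-1.0).

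ER-associated degradation, which removes proteins the chaperones fail to fold, was measured by 34 of 36 listed genes. In unbound against total RNA 3 were at least 2-fold higher and 5 lower (median -0.21), in bound against unbound RNA 2 were higher and 4 lower (median 0.08), and in bound against total RNA 0 were higher and 2 lower (median -0.004). These counts are near the shares of all genes given above for each comparison. EDEM2 (1.13) and EDEM1 (1.07), which act on mannose-trimmed clients, were highest in bound minus unbound RNA, and UBXN8 (-1.87) and RHBDD1 (-1.57) lowest. HERPUD1, a stress-induced membrane component, had -0.37 in bound minus unbound and 0.98 in unbound minus total RNA, the opposite side from HSPA5.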

How the data were processed

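The authors deposited 1 log2 expression value per probe set and array, 33297 probe sets in all. Partek 6.5 and RMA, which summarises probes per probe set, are given in the submitters' processing notes, and the genome build is not stated there. The 3 columns do not share a distribution, and the decimals of the bound column show a constant between 0.1127 and 0.1140 added to it, of unknown origin, which centring removes. Precision is limited by 1 array per source.

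Symbols came from GEO's platform annotation: 19460 probe sets list 1 symbol, 1754 several and 12083 none, and genes were named from the first kind alone. The brightest probe set stood for a gene. Genes with a mean over 3.84, the 95th percentile of the 459 background genes, entered the comparisons. Centring used array medians, so the median of all relative differences need not be 0. Alternatives were other scalings (lowess span 0.3), filters, probe set rules and thresholds. The members and lists were chosen with earlier results of these data known. All 9 measured members are named, as are the 2 highest and 2 lowest genes of each other list in bound minus unbound RNA, and fixed counterparts and pathway genes. The centring and lowess steps were run on simulated data with a flat offset between arrays and no level trend. The removal of such a trend was therefore not tested. Versions were statsmodels 0.14.6, matplotlib 3.10.9, pandas 2.3.3, numpy 2.4.6 and Python 3.11.15.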

Additional observations from a re-analysis of the deposited data

How the results depend on the processing

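In unbound minus total RNA, the count of 5 lower genes ranged from 4 (at 3-fold) to 6 (as deposited and at 1.5-fold) and the count of higher genes was 0 under every alternative run, with a median from -1.82 to -1.30. Of all genes 2.62% were lower at 3-fold, 16.0% as deposited and 22.3% at 1.5-fold. In bound minus unbound RNA the count of higher genes, 0 after centring, was 7 as deposited, 7 with the constant subtracted, 4 after quantile normalization, 1 after lowess, 2 with centring over all probe sets and 3 at a threshold of 1.5-fold, where 2 genes were lower. The shares of all genes by the same rules were 61.4%, 54.8%, 10.7%, 6.38%, 14.7% and 17.7%, and 22.1% lower at 1.5-fold. The median of 0.28 was 1.54 as deposited and 1.42 with the constant subtracted. In bound minus total RNA the count of 4 lower genes became 0 as deposited, 0 with the constant subtracted, 1 after quantile normalization, 1 after lowess, 7 at 1.5-fold and 1 at 3-fold, against 0.572%, 0.705%, 3.39%, 3.68%, 18.5% and 1.53% of all genes. The median of -0.99 became 0.045 as deposited, -0.069 with the constant subtracted, -0.26 after quantile normalization and -0.24 after lowess. The offset between arrays and the level trend are what these scalings treat differently, and the cause of either was not tested. A median counted as moved when it shifted by more than the SD of the gap between probe sets of 1 gene. Of 234 single-gene values under alternatives, 198 stayed on their side of 2-fold, 14 dropped below it and 22 passed it. The alternative by protein length was not run, since no protein table was used here. No paired analysis was possible because each source has 1 array. DNAJB9 is limited by its signal over background.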

Other observations

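Genes that bring proteins into the ER were measured beside the chaperones. Of 35 listed translocon, signal recognition, signal peptidase and oligosaccharyltransferase genes 32 passed the filter. In unbound against total RNA 11 were at least 2-fold lower and 0 higher (median -0.49), against 10% and 8.08% of all genes. With the lowess trend removed 6 were lower and 1 higher, against 7.56% and 9.4% of all genes. In bound against unbound RNA 5 were higher and 5 lower (median 0.09), against 6.36% and 9.91% of all genes. TRAM2 (1.43) and the signal peptidase subunit SPCS3 (1.11) were highest, while the signal peptidase subunit SEC11A (-1.59) and the translocon-associated SSR2 (-1.26) were lowest. With the lowess trend removed SSR2 had -0.42. In bound against total RNA 0 were higher and 1 lower (median -0.34), against 2.66% and 6.43% of all genes.

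All 12 listed mitochondrial chaperones passed the filter. In unbound against total RNA 4 were at least 2-fold lower and 0 higher (median -0.76), against 10% and 8.08% of all genes. In bound against unbound RNA 1 was higher and 1 lower (median 0.15), against 6.36% and 9.91% of all genes. In bound against total RNA 0 were higher and 2 lower (median -0.58), against 2.66% and 6.43% of all genes. LONP1, a protease of the matrix, had 1.07 in bound minus unbound RNA, CLPB 0.45, GRPEL2 -0.73 and HSPD1, the mitochondrial chaperonin, -1.38.

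The ER stress response element occurs in the promoter windows of 19 genes outside the list, 9 of which passed the filter: ALG12, CRELD2, EIF2A, ERO1B, FICD, SERP1, TMEM120A, TRIM5 and ZNF17. In unbound minus total RNA their median was 0.14 and 0 of 9 were 2-fold lower, a count that the share of 10% over all genes makes unremarkable. The members that hold it had a median of -1.63, with 4 of 6 lower. The 3 measured members without an exact match in their windows had a median of -0.79, and PDIA4 was the 1 of them that was 2-fold lower. EIF2A, an initiation factor, had -2.22 in bound minus unbound and 1.16 in unbound minus total RNA. CRELD2 (0.07 in unbound minus total RNA) and ERO1B (-0.13), themselves ER folding genes, were near the median of all genes. These values describe 1 array a source and were not tested.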
